A study of Mus musculus with 6 samples.

Results

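A set of 10 genes of humoral immunity was followed in mouse gastrocnemius, the large muscle of the calf: the 3 chains of the complement protein C1q (C1qa, C1qb, C1qc), the complement component C3, the anaphylatoxin receptors C3ar1 and C5ar1, and the Fc gamma receptors Fcgr1, Fcgr2b, Fcgr3 and Fcgr4. They were chosen by name, with earlier results of these data known, and all 10 symbols were found among the 49315 genes of the count tables by Ensembl identifier. RNA sequencing compared 3 libraries labelled WT with 3 labelled mKO, the label for a knockout of Hnrnpu restricted to muscle. Both groups share the strain label mixed C57BL/6 129, the tissue and an age of 3 months. No source used here names the promoter behind the deletion, the exons removed or the animals in each library, and p-values therefore reflect only how much these libraries vary, which may be technical.

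Complement is a cascade of plasma proteins that marks particles for uptake. C1q, built of A, B and C chains, binds antibody bound to its target, dying cells and other ligands and starts the classical pathway; macrophages are its main source in most tissues. C3 is the point where the pathways meet: its large fragment coats surfaces, and its small fragment C3a, like C5a from C5, is a peptide signal read by C3ar1 and C5ar1 on myeloid cells. Fc gamma receptors bind the constant part of IgG. In the mouse Fcgr1, Fcgr3 and Fcgr4 signal through the shared gamma chain encoded by Fcer1g and activate the cell, whereas Fcgr2b carries its own inhibitory motif.

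Library totals ranged from 32108684 to 42344238 counts, so that 1 count was worth 0.0220 to 0.0334 CPM, where CPM is the count relative to the library size after scaling by the trimmed mean of M-values (TMM). Hnrnpu itself was at 239 ± 7.59 CPM in WT and 208 ± 2.92 CPM in mKO-labelled libraries (SD, n = 3), a log2 fold change of -0.20 (SE 0.10, edgeR adjusted p = 0.147) that turned to 0.27, called higher (edgeR adjusted p = 0.0402), when library totals replaced the TMM factors. Reads from any exons that were kept would still count, and counts per exon were not examined. This level therefore does not establish the labels, and directions below follow them as given. Muscle RNA was abundant as labelled: 8 muscle fibre genes such as Myh4, the fastest myosin heavy chain, summed to 109000 to 129000 CPM in the WT group against 47350 to 54760 CPM in the mKO-labelled group.

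All 10 genes were higher in mKO-labelled muscle, and for none did the groups overlap. Each passed the quasi-likelihood test of edgeR at an adjusted p of 0.05, against 18.2% of the 16650 tested genes called higher and 37.0% called in either direction. A higher level without overlap between groups was found for 10 of 10 against 25.3% of tested genes. The median log2 fold change was 1.57 over the 10 genes and 0.02 over all tested genes. Because the 10 genes were chosen with earlier results known, these comparisons with all tested genes are descriptions only. Among mKO-labelled libraries the level was lowest in replicate 2 for all 10 genes, and highest in replicate 1 for 8 genes and in replicate 3 for the other 2, Fcgr1 and Fcgr4. How many of all tested genes share this order was not counted, so it is not shown to be particular to the 10 genes. In whole muscle RNA, more cells of a type and more RNA per cell cannot be told apart.

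**Figure D1:**
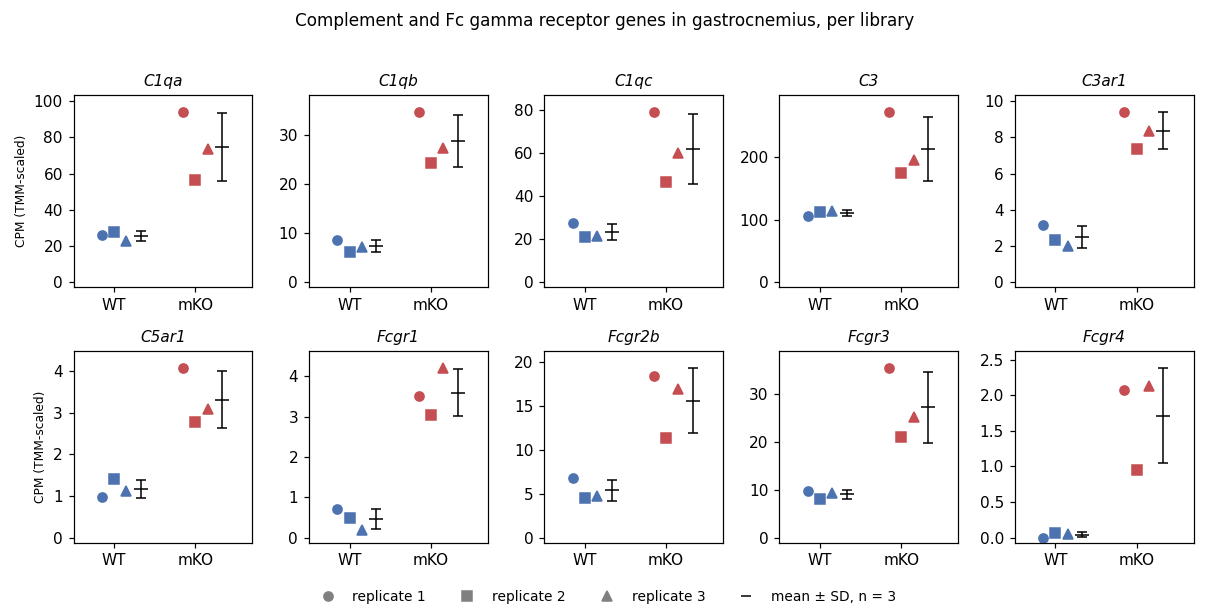
TMM-scaled CPM of each of the 10 genes (vertical axes, each from 0) in 3 WT and 3 mKO-labelled libraries; symbols give the replicate number, and bars the mean ± SD (n = 3). In every panel all 3 mKO-labelled libraries lie above all 3 WT libraries, and replicate 2 is the lowest of the mKO-labelled ones.

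The 3 C1q chains rose 2.66- to 3.93-fold. C1qa, the A chain, had 26.1, 27.8 and 22.6 CPM in WT replicates 1 to 3 and 93.9, 56.6 and 73.8 CPM in mKO-labelled replicates 1 to 3. The lowest mKO-labelled library was 2.04 times the highest WT library, and edgeR gave a log2 fold change of 1.55 (SE 0.17, edgeR adjusted p = 1.88e-05). C1qb, the B chain, had 8.65, 6.22 and 7.16 CPM in WT against 34.7, 24.4 and 27.4 CPM. It had the largest change of the chains, with a log2 fold change of 1.98 (SE 0.17, edgeR adjusted p = 3.13e-06). C1qc, the C chain, had 27.6, 20.97 and 21.5 CPM in WT against 78.9, 46.7 and 60.2 CPM, a log2 fold change of 1.41 (SE 0.18, edgeR adjusted p = 6.4e-05). The mKO-labelled libraries spread by 1.43 to 1.69 times between the lowest and the highest.

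The chains stand side by side on the minus strand of chromosome 4 in GRCm38, with C1qb at 136880129 to 136886187, C1qc at 136889804 to 136893065 and C1qa at 136895917 to 136898803. They fill 18.7 kb, and no exon of theirs overlaps another gene in the count tables. Because these genes moved together, the bases before the start sites were read from RefSeq (GRCm38.p6), which gave a window for 9 of the 10 genes, all but C1qa. The search was for GAGGAA, the core of sites bound by the myeloid transcription factor PU.1, on both strands (TTCCTC on the other), in the 250 bases before the start; the motif was chosen after the windows were seen. It occurred in 5 of the 9 windows (C1qb, C1qc, Fcgr1, Fcgr3 and Fcgr4) and in 23.1% of 27025 promoters of the same length. With a motif chosen from these windows, that comparison is no test of an excess. The C1qb window, at chr4:136886201-136886450 on the minus strand, is printed 5′ to 3′ with the match in capitals, 30 bases before the start, as the chain with the largest change.
C1qb promoter: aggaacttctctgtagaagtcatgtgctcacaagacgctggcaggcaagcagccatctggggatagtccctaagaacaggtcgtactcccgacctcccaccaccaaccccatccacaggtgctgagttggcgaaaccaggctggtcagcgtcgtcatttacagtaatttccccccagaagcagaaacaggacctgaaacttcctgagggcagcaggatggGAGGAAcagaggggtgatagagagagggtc
A match of 6 letters is a description of the sequence and no measure of binding.

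C3, the central component, had the smallest change of the 10. The WT libraries held 105, 112 and 115 CPM, and the mKO-labelled ones 272, 175 and 195 CPM. The groups were apart by 1.53 times between their nearest libraries. This was a 1.93-fold rise (log2 0.95, SE 0.15, edgeR adjusted p = 0.000372), and 1848 tested genes had a fold change at least as large. Outside the liver, C3 is also made by fibroblasts and adipocytes. Of 10 fibroblast markers 1 was called higher and 1 lower, against 18.2% and 18.9% of all tested genes. With library totals 8 were called higher and none lower, where 8159 of the 16650 tested genes were called higher. The fibroblast markers summed to 1623 to 1861 CPM in WT against 1678 to 1771 CPM in mKO-labelled libraries. Dcn, which encodes the matrix protein decorin, had a log2 value of -0.22 (edgeR adjusted p = 0.168), or 0.24 with library totals. Of 6 adipocyte markers none was called, against 37.0% of all tested genes, with sums of 210 to 310 CPM in WT against 192 to 217 CPM. The highest of them, the lipid droplet gene Plin4, had a log2 value of -0.35 (edgeR adjusted p = 0.0714), or 0.12 with library totals. Hepatocyte markers were near 0, with sums of 0.301 to 0.895 CPM against 0.220 to 0.404 CPM and 3 of 6, Serpina1a, Ttr and Fgb, at 0 counts in every library; the highest, Apoh, had 0.408 and 0.187 CPM.

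Both anaphylatoxin receptors rose from low levels. C3ar1, the receptor of C3a, had 3.17, 2.33 and 2.01 CPM in WT and 9.39, 7.34 and 8.37 CPM in mKO-labelled libraries. This was a log2 fold change of 1.74 (SE 0.20, edgeR adjusted p = 3.59e-05), and the mKO-labelled libraries were the tightest of the 10 genes, within 1.28 times of each other. C5ar1, the receptor of C5a that draws in myeloid cells, had 0.969, 1.41 and 1.12 CPM in WT against 4.08, 2.78 and 3.08 CPM. It rose 2.83-fold (log2 1.503, SE 0.25, edgeR adjusted p = 0.000566). The second C5a receptor, C5ar2, named after its value was seen, had 0.440 ± 0.232 CPM in WT and 0.901 ± 0.297 CPM in mKO-labelled libraries (SD, n = 3), a log2 value of 1.03 that missed the threshold (SE 0.46, edgeR adjusted p = 0.0985). Hc, which encodes C5 itself, was at 0 counts in WT and at a mean of 0.0240 CPM in mKO-labelled libraries, and was not tested.

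The Fc gamma receptors held both the largest and some of the middling changes. Fcgr4, the activating receptor for IgG2 subclasses on monocytes and macrophages, had 0, 2 and 2 counts in WT replicates 1 to 3 and 94, 42 and 79 counts in mKO-labelled replicates 1 to 3, or 2.07, 0.943 and 2.13 CPM. It was thus at the edge of detection in WT and present in each mKO-labelled library. Pooling the counts of each group over their scaled library sizes gave a ratio of 41.6, with an exact binomial 95% interval of 16.0 to 154 that covers counting error only. edgeR fitted a log2 fold change of 5.29 (SE 0.63, edgeR adjusted p = 4.26e-05). Fcgr1, the high-affinity IgG receptor, had 0.702, 0.490 and 0.196 CPM in WT against 3.50, 3.05 and 4.21 CPM, a 7.85-fold rise (log2 2.97, SE 0.36, edgeR adjusted p = 4.48e-05). Of all tested genes 43 had a fold change at least as large as Fcgr4, and 199 one as large as Fcgr1, the counts including the gene itself.

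Fcgr3 and Fcgr2b, the low-affinity pair with opposite signals, rose 3.02- and 2.92-fold; the difference between them was not tested. Fcgr3, the activating one, had 9.79, 8.06 and 9.20 CPM in WT and 35.4, 20.9 and 25.3 CPM in mKO-labelled libraries, a log2 fold change of 1.59 (SE 0.18, edgeR adjusted p = 2.95e-05). Fcgr2b, the inhibitory one, had 6.78, 4.51 and 4.78 CPM in WT against 18.4, 11.4 and 16.9 CPM, a log2 fold change of 1.54 (SE 0.21, edgeR adjusted p = 0.000106). In both genes replicate 2 of the mKO-labelled libraries was nearest to WT, at 2.14 and 1.68 times the highest WT library.

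Reads of this pair are partly alike. The genes lie in a cluster of 106.3 kb on chromosome 1 (GRCm38), with Fcgr2b at 170958617 to 170976547 and Fcgr3 at 171051174 to 171064935 on the minus strand, and Fcgr4 at 171018920 to 171029761 on the plus strand between them. Of the 50-base stretches of GENCODE transcripts, 9.58% of those of Fcgr3 recurred in Fcgr2b, and 6.95% of those of Fcgr2b recurred in another gene. None of the other 8 genes shared a stretch of that length. The longest identical run is 129 coding bases across exons 3 and 4 of both genes, within 170966674 to 170968081 in Fcgr2b and 171054167 to 171057792 in Fcgr3. It is printed because a read inside it cannot be assigned to 1 of the 2 genes.
Fcgr2b and Fcgr3 shared run: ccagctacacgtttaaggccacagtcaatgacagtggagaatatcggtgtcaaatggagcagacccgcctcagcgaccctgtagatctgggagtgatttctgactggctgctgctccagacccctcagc
No source used here says how such reads were counted, so the values of these 2 genes carry that uncertainty. Exons of Fcgr2b also overlap the gene Gm38204 on the other strand over 2.7% of their bases.

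The 3 activating receptors all had the searched motif before their start sites, whereas the Fcgr2b window did not, which says only that these letters are absent from that window. Of the 250 bases before the RefSeq start, 203 in the Fcgr2b window and 151 in the C1qc window lie in exons listed in the count tables, so these windows are largely inside the gene models. The windows are chr3:96293970-96294219 on the minus strand for Fcgr1, chr1:171059404-171059653 on the minus strand for Fcgr3, the first of 2 windows RefSeq gives, and chr1:171018676-171018925 on the plus strand for Fcgr4. Capitals mark the match, which starts 55, 6 and 22 bases before the start and reads on the other strand in all 3.
Fcgr1 promoter: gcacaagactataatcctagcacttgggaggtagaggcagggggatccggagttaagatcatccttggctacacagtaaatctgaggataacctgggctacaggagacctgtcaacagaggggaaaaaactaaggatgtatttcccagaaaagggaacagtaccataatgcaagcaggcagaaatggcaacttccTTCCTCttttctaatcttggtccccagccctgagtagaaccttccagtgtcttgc
Fcgr3 promoter: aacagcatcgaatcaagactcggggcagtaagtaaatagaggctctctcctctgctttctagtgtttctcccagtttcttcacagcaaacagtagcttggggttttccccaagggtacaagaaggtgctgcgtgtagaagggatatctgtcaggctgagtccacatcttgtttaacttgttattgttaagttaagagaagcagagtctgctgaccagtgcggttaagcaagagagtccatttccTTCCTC
Fcgr4 promoter: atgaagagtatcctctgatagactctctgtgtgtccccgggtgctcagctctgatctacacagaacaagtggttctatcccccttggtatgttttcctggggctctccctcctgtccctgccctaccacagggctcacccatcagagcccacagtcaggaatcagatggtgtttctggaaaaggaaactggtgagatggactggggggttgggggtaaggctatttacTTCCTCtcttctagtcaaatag
Binding at these sites was not analysed here.

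Levels can be set side by side once counts are divided by exon length, as CPM per kb. In WT the order ran from C1qa (24.5 ± 2.57) and C3 (21.5 ± 0.938) over C1qc (12.1 ± 1.90), C1qb (6.75 ± 1.13) and Fcgr3 (5.19 ± 0.505) to Fcgr2b (0.925 ± 0.214), C3ar1 (0.582 ± 0.139), C5ar1 (0.454 ± 0.0874), Fcgr1 (0.179 ± 0.0981) and Fcgr4 (0.0311 ± 0.0270; all SD, n = 3). Only C1qa with C3 and C3ar1 with C5ar1 overlapped as neighbours in this order. In mKO-labelled libraries C1qa stood alone at the top with 71.9 ± 17.9 CPM per kb, followed by C3 (41.6 ± 9.98), C1qc (32.1 ± 8.36) and C1qb (26.5 ± 4.89), whose neighbours overlapped. Fcgr3 (15.7 ± 4.28) did not overlap with its neighbours, and Fcgr2b (2.69 ± 0.643) overlapped with C3ar1 (1.94 ± 0.238). At the bottom Fcgr1 (1.39 ± 0.226), Fcgr4 (1.37 ± 0.533) and C5ar1 (1.29 ± 0.264) could not be ordered beyond their spread. The exon length of Fcgr2b (5790 bases) counts every listed isoform, which lowers its value per kb.

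Within the C1q family the B chain held a larger share in every mKO-labelled library. C1qb held 16.8, 13.2 and 16.7% of the CPM per kb of the 3 chains in WT replicates 1 to 3 and 19.6, 22.2 and 19.8% in mKO-labelled replicates 1 to 3. C1qc held 25.1 to 30.2% in WT against 23.9 to 25.1%, and C1qa 53.1 to 61.7% against 53.9 to 55.7%. The groups did not overlap for C1qb and C1qc and overlapped for C1qa; for C1qc the nearest libraries were 25.07 and 25.05%. Among Fc gamma receptors Fcgr3 held the largest part in every library, 79.6 to 84.8% for WT against 69.9 to 76.7%. The inhibitory receptor Fcgr2b held 13.2 to 16.5% against 12.0 to 14.1%, with overlap. Fcgr4 went from 0 to 0.862% to 4.70 to 8.16%, and Fcgr1 from 1.21 to 3.83% to 5.09 to 7.82%, both without overlap. Without division by length the Fcgr3 share overlapped between groups (56.7 to 64.6% against 52.0 to 59.6%). The Fcgr2b share was then larger, 33.6 to 39.3% in WT against 31.0 to 34.9%, again with overlap. These shares are descriptions with no test.

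**Figure D2:**
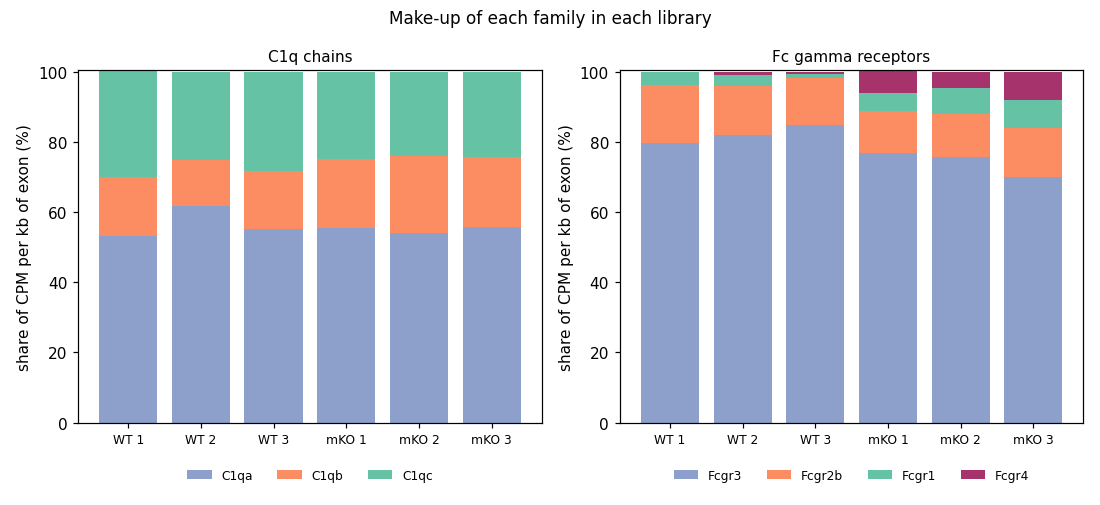
Stacked bars of the share of CPM per kb of exon (vertical axis, percent) that each C1q chain (left) and each Fc gamma receptor (right) held in each of the 6 libraries. The Fcgr4 part is at most 0.862% in WT and at least 4.70% in mKO-labelled libraries, while the C1qa part overlaps between the groups.

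Macrophage markers were higher in the same libraries. Of 15 listed, 13 rose and none fell (86.7% higher, against 18.2% of all tested genes), with a median log2 fold change of 1.26. Their summed level was 367, 326 and 308 CPM in WT replicates 1 to 3 and 1139, 722 and 857 CPM in mKO-labelled replicates 1 to 3, so replicate 2 was again the lowest and replicate 1 the highest of the latter. By lowest p the list was led by Lgmn (log2 1.83), a lysosomal protease gene, Mpeg1 (2.80), a pore-forming protein gene of phagocytes, Cd68 (2.62) and the protease gene Ctss (2.42), with edgeR adjusted p from 4.67e-07 to 7.21e-07. Lyve1 and Timd4, markers of resident macrophages named after their values were seen, had log2 values of 0.07 and -0.31 (edgeR adjusted p = 0.830 and 0.402). They were the 2 of the 15 not called. Mrc1, Cd163 and Mertk, named in the same way, were called higher (log2 0.86, 0.57 and 0.99). Whether resident macrophages changed was not tested. The part of the 15 macrophage markers in the rise of the 10 genes was not tested either.

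Set against the macrophage sum of the same library, 6 of the 10 genes overlapped between groups, 3 were higher and 1 was lower. On that scale 2.35% of all tested genes were higher and 80.3% lower without overlap. C1qa had 71.2 to 85.4 CPM per 1000 macrophage CPM in WT against 78.4 to 86.1, C1qc 64.4 to 75.1 against 64.7 to 70.2, and Fcgr3 24.8 to 29.9 against 29.0 to 31.1. C5ar1, Fcgr2b and C3ar1 also overlapped, with ratios of group means of 1.04, 1.08 and 1.26. Fcgr4 had 0, 0.188 and 0.182 per 1000 in WT and 1.82, 1.31 and 2.49 in mKO-labelled libraries, and Fcgr1 had 1.91, 1.51 and 0.637 against 3.08, 4.23 and 4.91. C1qb was higher as well, with 19.1 to 23.6 against 30.5 to 33.8. The C1q chains together had 167 to 170 against 177 to 188, without overlap. C3 was lower on this scale, with 287, 344 and 373 per 1000 in WT against 239, 243 and 228 in mKO-labelled libraries. In CPM the 15 markers themselves changed unequally, from 0.806-fold (Timd4) to 6.96-fold (Mpeg1), against 2.72-fold for their sum. C1qb (3.93-fold) and C3 (1.93-fold) lay within that range, and Fcgr1 (7.85-fold) and Fcgr4 (39.1-fold) above it. Lyz2, the most abundant marker, made up 33.9 to 43.8% of the sum, and without it C3ar1 also lay apart (9.91 to 14.1 against 14.7 to 15.8), an alternative chosen after seeing the data.

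**Figure D3:**
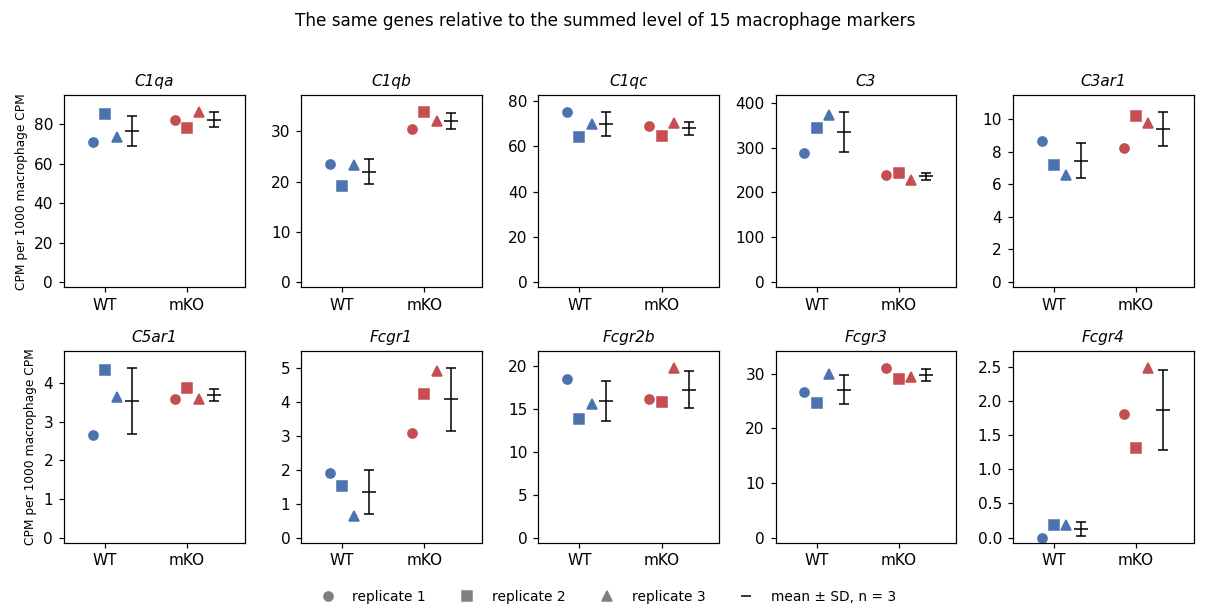
CPM of each gene per 1000 summed CPM of 15 macrophage markers in the same library (vertical axes, from 0), for 3 WT and 3 mKO-labelled libraries, with mean ± SD (n = 3). Fcgr1, Fcgr4 and C1qb are higher and C3 is lower in all mKO-labelled libraries, and the other 6 genes overlap.

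Monocyte markers rose in 5 of 5 tested genes, against 18.2% of all tested genes, with sums of 143 to 165 CPM in WT against 206 to 305 CPM in mKO-labelled libraries. The highest of them when both groups are averaged, Vcan, which encodes the matrix proteoglycan versican and is not restricted to monocytes, had a log2 fold change of 0.77 (edgeR adjusted p = 0.00612). Ly6c2, a marker of inflammatory monocytes named after its value was seen, rose from 0.157 ± 0.0750 to 1.60 ± 0.492 CPM (SD, n = 3; edgeR adjusted p = 0.000122). Of 10 neutrophil markers, Ly6g and Ngp were at 0 counts in every library, and the sum was 1.01 to 1.97 CPM against 2.13 to 3.46 CPM; Csf3r, the receptor of the granulocyte growth factor, which monocytes also express, was the 1 of 3 tested that rose (log2 1.58).

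Of 26 other complement components listed, 17 were tested, 5 rose and none fell (29.4% higher, against 18.2% of all tested genes), with a median log2 fold change of 0.26. Cfb, the protease component of the alternative pathway, had 2.21, 2.45 and 2.10 CPM in WT and 10.9, 9.03 and 10.5 CPM in mKO-labelled libraries (log2 2.17, SE 0.17, edgeR adjusted p = 1.95e-06). C4b, which encodes C4 of the classical pathway, had 12.6, 26.5 and 26.6 CPM against 86.0, 58.6 and 70.7 CPM (log2 1.71, SE 0.24, edgeR adjusted p = 0.000128); it shares 34.6% of its 50-base stretches with C4a, so its count is uncertain. Cfp, which encodes properdin, the stabiliser of the alternative pathway enzyme, rose 2.21-fold (7.33 ± 1.34 to 16.2 ± 5.05 CPM; SD, n = 3). C6, of the membrane attack complex, rose from 0.208 ± 0.0953 to 0.958 ± 0.221 CPM (log2 2.17). The fifth that rose, C1ra, a protease of the C1 complex named after its value was seen, had a log2 fold change of 0.54 (edgeR adjusted p = 0.00970). Scaled by library totals, 10 of the 17 were called higher, as were 8159 of all 16650 tested genes.

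Regulators and receptors of complement split in 2 directions. Of 22 listed, 16 were tested, 6 rose and 5 fell (37.5% higher, against 18.2%; 18.9% of all tested genes were called lower). The rises held the receptor integrins that bind fragments of C3: Itgb2, the shared beta chain, went from 3.17 ± 0.370 to 11.9 ± 2.81 CPM (SD, n = 3; log2 1.91, edgeR adjusted p = 1.46e-05). Its partners Itgam and Itgax, named after their values were seen, had log2 fold changes of 1.39 and 2.51. Also named in that way, Vsig4, a complement receptor of tissue macrophages, rose (log2 1.26, edgeR adjusted p = 0.0393), as did the plasma regulator Serping1 (log2 0.61, edgeR adjusted p = 0.00307).

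Of the 5 that fell, 4 encode membrane proteins that protect host cells from complement. Cd55, which encodes decay-accelerating factor, had 199, 150 and 186 CPM in WT replicates 1 to 3 and 64.8, 43.8 and 58.1 CPM in mKO-labelled replicates 1 to 3. Every mKO-labelled library was below every WT library, with a log2 fold change of -1.68 (SE 0.16, edgeR adjusted p = 6.55e-06); 9.12% of its 50-base stretches recur in other genes. Cd59a, whose product blocks the membrane attack complex, had 22.4, 23.2 and 31.1 CPM against 10.2, 6.80 and 10.1 CPM (log2 -1.504, SE 0.18, edgeR adjusted p = 4.26e-05). Cd59b, its paralog, had 4.17, 5.46 and 3.92 CPM against 0.970, 0.674 and 0.351 CPM (log2 -2.74, SE 0.31, edgeR adjusted p = 3.31e-05); 20.1% of its 50-base stretches recur in other genes. Cr1l, the rodent regulator also called Crry, fell less, from 45.0 ± 3.37 to 30.9 ± 2.32 CPM (log2 -0.54, edgeR adjusted p = 0.00197), as did Vtn, which encodes vitronectin (log2 -0.50, edgeR adjusted p = 0.0101). With library totals the latter 2 were at -0.07 and -0.04 and were not called, while Cd55 (-1.22), Cd59a (-1.04) and Cd59b (-2.27) still passed. Muscle fibre and endothelial markers were lower in the same libraries, 7 of 8 and 7 of 7 called lower (18.9% of all tested genes), and their part in these falls was not tested. With library totals 5 of 8 and 3 of 7 were called lower, where 9283 of the 16650 tested genes were called, 8159 of them higher. Endothelial markers summed to 262 to 343 CPM in WT against 158 to 176 CPM, and Tek, a receptor kinase of vessels, was at log2 -0.59, or -0.12 with library totals, where it was not called (edgeR adjusted p = 0.424).

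**Figure D4:**
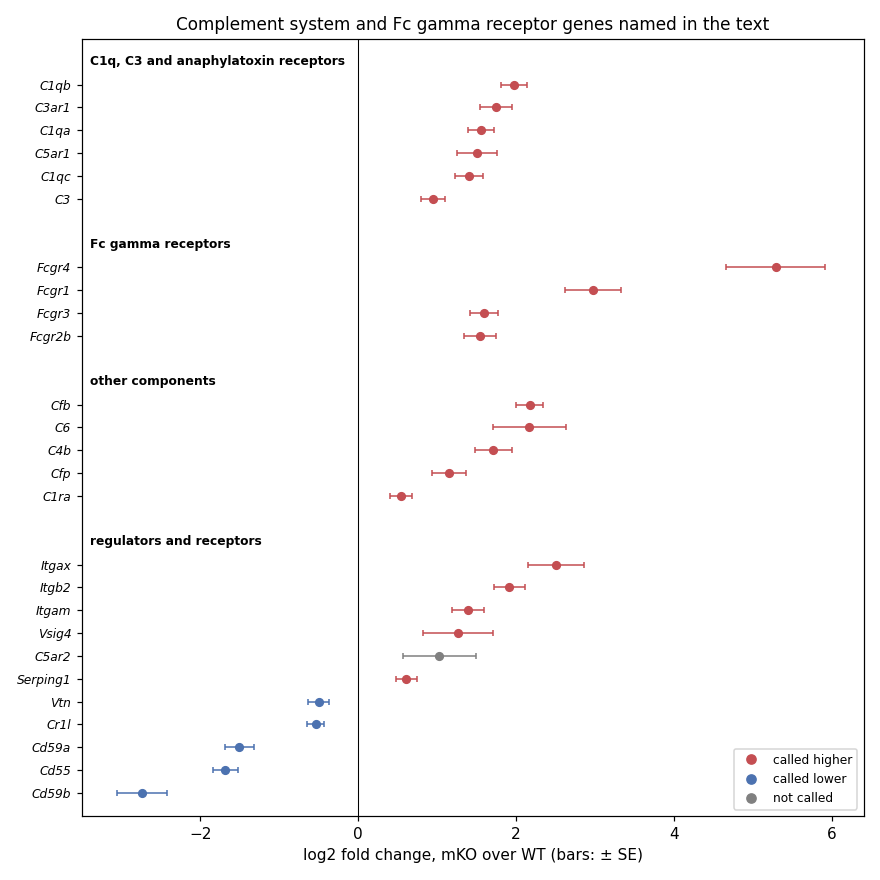
Log2 fold change of mKO-labelled over WT libraries (horizontal axis, with SE bars) for the genes of the complement system and the Fc gamma receptors that the text names and that were tested, grouped by role and coloured by the call at an edgeR adjusted p of 0.05. The 10 genes followed here lie between 0.95 and 5.29, and Cd55, Cd59a and Cd59b lie between -2.74 and -1.504.

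Other Fc receptors were mostly too low to test, with 3 of 12 tested. Fcer1g, the signalling gamma chain that Fcgr1, Fcgr3 and Fcgr4 need at the surface, rose from 2.23 ± 0.464 to 6.93 ± 0.833 CPM (SD, n = 3; log2 1.63, SE 0.20, edgeR adjusted p = 5.97e-05). Fcgrt, the neonatal receptor that recycles IgG in endothelium and other cells, had 36.1 ± 6.82 and 32.7 ± 4.36 CPM (log2 -0.14, edgeR adjusted p = 0.476). Trim21, a cytosolic antibody receptor, had 4.72 ± 0.186 and 4.19 ± 0.177 CPM (log2 -0.17, edgeR adjusted p = 0.456). The log2 values of the latter 2 turned positive with library totals (0.32 and 0.29), without passing the test.

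Genes that carry the signal of Fc receptors were raised on both the activating and the inhibitory side. Of 24 tested, 19 rose and none fell (79.2% higher, against 18.2% of all tested genes), with a median log2 fold change of 1.22. Syk, the kinase that binds the activated gamma chain, rose from 5.68 ± 0.983 to 14.9 ± 1.30 CPM (log2 1.39), and the Src-family kinase gene Fgr from 0.407 ± 0.141 to 2.49 ± 0.0562 CPM (log2 2.60). Inpp5d, whose lipid phosphatase SHIP1 acts downstream of Fcgr2b, rose from 4.44 ± 0.226 to 10.3 ± 0.872 CPM (log2 1.22). Sirpa, an inhibitory receptor of phagocytes that reads CD47, rose from 14.5 ± 1.17 to 30.3 ± 0.589 CPM (log2 1.07); all SD, n = 3, and edgeR adjusted p from 1.69e-05 to 5.29e-05. Many genes of this list are also expressed throughout the myeloid lineage, whose markers rose in the same libraries.

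The 5 genes with the profile most like that of the C1q chains were Fcgr3, Apoe, Spdl1, Csf3r and Csrp3. Likeness was the Euclidean distance between row-centred log2 CPM over the 6 libraries and the mean of the chains, among 13234 genes with a mean of at least 1 CPM, and ran from 0.206 to 0.288. Since 6 libraries in 2 groups set most of a profile, this describes the size of the change and the order of the libraries. Apoe, the apolipoprotein gene also made by macrophages, had 150, 114 and 107 CPM in WT and 432, 263 and 336 CPM in mKO-labelled libraries, whereas Spdl1 is a mitotic spindle gene and Csrp3 a muscle stretch-sensor gene. Fcgr2b ranked 13th and C3ar1 21st, while C5ar1 (108), C3 (449) and Fcgr1 (6917) were farther away. The Pearson correlations of these last 3 with the mean profile of the chains were 0.957, 0.969 and 0.946. Fcgr4, with a mean below 1 CPM, was not ranked.

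The Fc gamma receptor cluster lies on the chromosome of the targeted gene. The gap to Hnrnpu was 7.34 Mb from Fcgr2b, 7.29 Mb from Fcgr4 and 7.26 Mb from Fcgr3. Fcgr1 (chromosome 3, 96282909 to 96293969), C3 (chromosome 17, 57203970 to 57228136), C3ar1 (chromosome 6, 122847138 to 122856161), C5ar1 (chromosome 7, 16246743 to 16259540) and the C1q chains lie on other chromosomes. Whether the position near Hnrnpu had a part in the rise of Fcgr2b, Fcgr3 and Fcgr4 was not tested.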

How the data were processed

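Gastrocnemius RNA was sequenced in 6 libraries, 3 per group, grouped by their titles. The authors deposited raw counts, 1 value per Ensembl gene and library over its listed exons, per the file headers. The submitters' processing notes name Trimmomatic 0.36, STAR 2.5.2b, featureCounts of Subread 1.5.2 and the GRCm38 build. No source used here gives the strand setting, pair counting or handling of multi-mapped reads. Exon lengths come from the deposited tables. Symbols matched 48970 of 49315 identifiers and all 192 listed genes.

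Counts were tested with glmQLFTest of edgeR 4.0.16 (R 4.3.3), using TMM factors, the default filter by group (16650 genes), group as the only term and Benjamini-Hochberg adjustment over all genes at 0.05. The SE is the log2 fold change divided by the root of its F statistic. Fold changes are mKO over WT. The steps were tested on simulated counts, with 100 genes changed 2-fold and 100 changed 1.5-fold. Of these, 62 and 11 were called, and 4 of all 77 calls were false. A gene not called may thus still have changed. Chi-square per degree of freedom between replicates was 20.9 to 57.7, so no library was a copy. The biological coefficient of variation was 16.1%.

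The genes and lists were chosen with earlier results of these data known. Lists are described by counts and medians, and some of their genes are not reported here by name. The text names the 10 genes, the 4 genes of lowest p in each pathway list and in the macrophage list, pathway genes called against the majority of their list, the most abundant gene of each other marker list and the 5 nearest profiles. Genes outside this rule are marked or are defining markers at or near 0. Alternatives included DESeq2 1.42.0 and limma-voom 3.58.1.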

Additional observations from a re-analysis of the deposited data

How the results depend on the processing

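All 10 genes were called higher and none lower under each of 16 alternatives: DESeq2, limma-voom, library totals, upper-quartile factors, no filter and a stricter one, robust dispersion, an adjusted p of 0.01, a test without mitochondrial and the 10 most abundant genes, the replicate block and leaving out each of the 6 libraries. The lowest and highest log2 fold changes were 0.74 and 1.42 for C3, 1.20 and 1.88 for C1qc, 1.35 and 2.02 for C1qa, 1.82 and 2.44 for C1qb, 1.36 and 2.06 for Fcgr3, 1.40 and 2.01 for Fcgr2b, 1.60 and 2.21 for C3ar1, 1.32 and 1.97 for C5ar1, 2.58 and 3.43 for Fcgr1 and 4.79 and 5.74 for Fcgr4. Library totals move the median of all genes from 0.02 to 0.49, and 8159 of the 16650 tested genes were then called higher, against 3022. Among the counts for the 10 genes, the pathway lists and the macrophage list, they changed 2 by over 1.5 times. Other complement components called higher became 10, and complement regulators and receptors called lower became 3. Library totals also turned the log2 values of Trim21 (0.29), Fcgrt (0.32), the mast cell gene Cma1 (0.13), Dcn (0.24) and Plin4 (0.12) positive without a call, and that of Hnrnpu (0.27) positive with one (edgeR adjusted p = 0.0402). Same-numbered libraries did not deviate together (correlations of 0.0222, 0.00351 and 0.0155, while WT replicate 2 correlated best with mKO replicate 1, at 0.0247, and WT replicate 3 with mKO replicate 2, at 0.0366). The numbers thus gave no sign of a pairing, though correlations this near 0 cannot exclude one. With the replicate block 5519 genes were called against 6166, and all 10 genes and the list counts were as without it: 5 other complement components higher, 6 regulators higher and 5 lower, 1 other Fc receptor, 19 signalling genes and 13 macrophage markers. The stricter filter left out C6, Cd2 and Apoh, and also Vsig4 and C5ar2, so that 5 regulators were called higher. Depth limits Fcgr4, with 4 counts in WT in all.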

Other observations

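Of 10 B and plasma cell markers 6 were tested and 3 rose, against 18.2% of all tested genes. Ighm, the constant region of IgM, had the highest level and rose from 18.5 ± 2.41 to 36.1 ± 12.8 CPM (SD, n = 3; log2 0.96, edgeR adjusted p = 0.00299). Cd22 and Jchain, named after their values were seen, also rose (log2 1.84 and 1.51, edgeR adjusted p = 0.0431 and 0.02555), and 3 tested markers were not called. Both were low: Cd22 had 1, 9 and 2 counts in WT against 25, 19 and 13 (means of 0.122 and 0.443 CPM). Jchain had means of 0.328 and 0.952 CPM. The defining B cell genes Cd79a, Ms4a1 and Pax5 were below 0.15 CPM on average in either group and were not tested. Of 8 T cell markers 2 were tested and 1 rose, with sums of 0.811 to 1.47 CPM in WT against 1.73 to 2.20 CPM; the highest, Cd2, had a log2 value of 0.36 (edgeR adjusted p = 0.479). None of 6 NK cell markers was tested, with sums of 0.429 to 0.615 against 0.945 to 1.15 CPM; Gzma, the highest when both groups are averaged, had 0.166 and 0.267 CPM. Of 6 mast cell markers none rose and 1 fell (none with library totals), where 18.9% of all tested genes were called lower. Their sums were 14.8 to 17.2 against 8.94 to 14.2 CPM, and Cma1, a chymase gene, had a log2 value of -0.33 (edgeR adjusted p = 0.356).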
